A study of Bos taurus with 30 samples.

Results

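The distal imprinted miRNA cluster, which runs from miR-379 to miR-656, was followed in the testes of young bulls raised on 2 planes of nutrition. Its members were taken by name: every row of the deposited table whose miRNA number belongs to the cluster, whatever its letter or arm. This gave 52 of the 1030 miRNAs in the table, and 38 of the 52, with 15 or more libraries at a value of 1 or above, entered the test, out of 387 miRNAs tested. The bulls were Holstein-Friesian calves on their diets from 2 to 12 weeks of age. The 15 High calves were given concentrate without limit and 1.5 kg of milk replacer per day, made up to 10 L, to gain 1.0 kg per day. The 15 Moderate calves were given 0.5 kg of milk replacer made up to 4 L and 0.5 kg of concentrate per day, to gain 0.5 kg per day. Each calf gave 1 small RNA library. Values are counts per 1e6 reads (CPM), with each library's total corrected by a factor from the trimmed mean of M values (TMM), and fold changes are High minus Moderate on log2(value + 0.5).

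In the DLK1-DIO3 domain, genes such as DLK1 are expressed from the paternal chromosome, while noncoding RNAs, including this miRNA cluster, are expressed from the maternal one. The hairpins of the cluster lie in tandem in a long noncoding transcription unit and are cut from it one by one, and each hairpin can give a mature miRNA from its 5p or its 3p arm. The cluster is best known from brain and placenta, is found in placental mammals, and in mice has been linked to metabolic adaptation after birth. In whole testis, fewer cells that express a miRNA and less of it per cell cannot be told apart.

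Diet was taken from the diet characteristic of each library, which matches the ending of its column name. In 18 of the 30 libraries, 9 of each diet, the title names the opposite diet, so every diet difference below depends on the characteristic being right. Depth, as reads summed over all listed miRNAs, was 6.0003 to 19.98 M reads (M, 1e6). It was up to 10.3 M reads in 11 High and 13 Moderate libraries and 16.7 M reads or more in 4 High and 2 Moderate ones. Moderate replicate 5 stood apart from the rest, since 84.8% of these reads were miR-10b, compared with 37.0% to 49.0% in the others. Of the 38 tested cluster members, 16 had their lowest value of all 30 libraries in it and 7 their highest, and results are therefore also given without it. miR-202, which marks the gonad, lay between 1055 and 3282 in the 30 libraries.

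Members from the same stretch of genome differed by orders of magnitude in level. miR-411a alone carried 84.0% of the summed signal of the cluster, and the 5 most abundant members, miR-411a, miR-410, miR-380-3p, miR-381 and miR-154c, carried 94.97%. miR-411a was at 7254, 9387 and 12207 in the lowest, median and highest High library and at 6251, 10975 and 13115 in the Moderate ones. miR-410 followed at 15.4-fold less on average. In all, 7 members had a mean of at least 100, 9 lay between 10 and 100, 22 between 1 and 10, and 14 below 1. Reads of mature miRNAs, which are of similar length, were compared here with no correction for unequal ligation.

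Neighbours in the gene order could be at opposite ends of this scale. The RefSeq gene table (assembly ARS-UCD2.0) lists 50 miRNA genes from MIR379 to MIR656, and 51 of the 52 members, all but miR-544b, matched a gene among them. miR-380-3p averaged 292 and the other arm of its hairpin, miR-380-5p, 0.230, while miR-411b, the next gene along, averaged 0.644. miR-453 and miR-409b were listed at 0 in all 30 libraries. The genes of miR-409a and miR-409b overlap in the table, as do those of miR-299 and miR-299-2, and the division of reads within such pairs is uncertain. A library held 43 to 48 of the 52 members above 0, and 39 members were above 0 in every library.

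**Figure D1:**
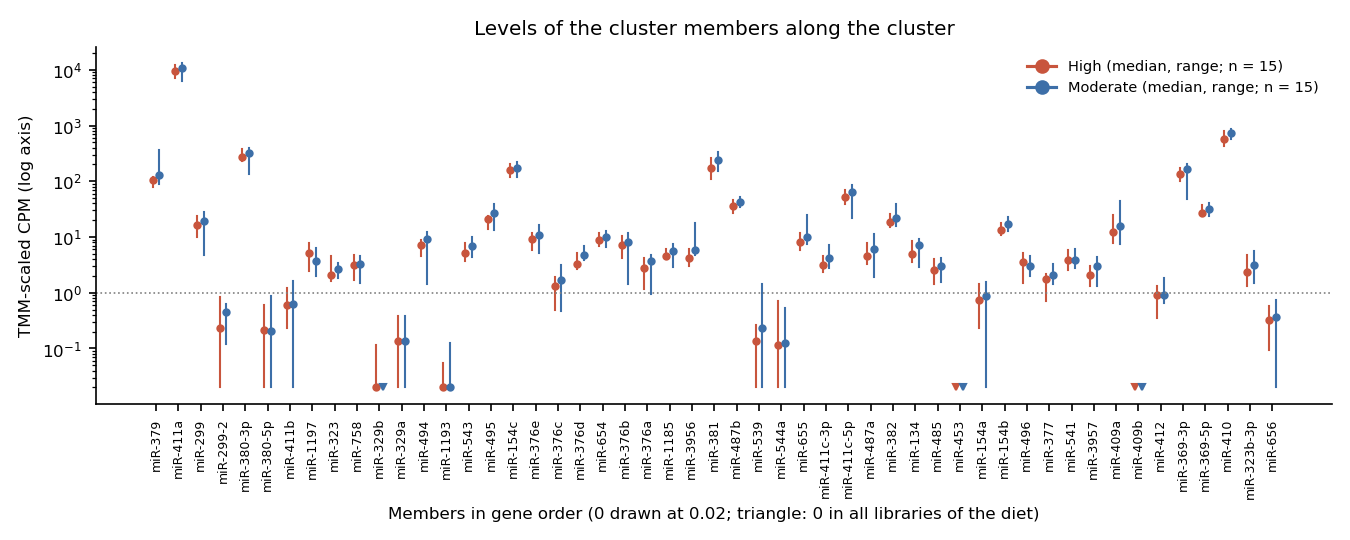
Levels of the 51 members with a gene, in gene order, as TMM-scaled CPM on a log axis, with the median (point) and range (line) over the 15 High and 15 Moderate libraries. miR-411a and miR-410 stand highest, and most members lie between 1 and 100 with overlapping ranges.

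The filter on low values parted members that were close in level. Just inside it, the 15th highest of the 30 values was 1.39 for miR-376c, 1.84 for miR-377 and 2.29 for miR-323. Just outside it, the same value was 0.919 for miR-412, 0.867 for miR-154a and 0.618 for miR-411b. Each of the 38 tested members reached 1 in at least 26 libraries, so none was tested through only 1 diet.

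Under the High diet, 6 of the 38 tested members fell and 0 rose (limma, adjusted p under 0.05 over all 387 miRNAs tested). Among all 387, 2.58% were called lower, that is 10, and 2.33% higher. At an unadjusted p under 0.05, 19 members were lower and 0 higher in limma, against 9.56% of all tested that were lower and 11.6% that were higher. edgeR on the recovered reads called 8 members lower (4.39% of all tested) and DESeq2 21 (8.53%), both including the 6, and neither called any higher (2.58% and 5.43% of all tested). The 6 were miR-376d, miR-3956, miR-410, miR-487b, miR-381 and miR-411c-3p, and their falls measured 16.9% to 29.7%.

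miR-410, among the most conserved miRNAs of the cluster, had its lowest, median and highest High values at 429.3, 583 and 788 and the Moderate ones at 573, 722 and 876. The ranges overlapped, but 6 High libraries lay below all Moderate ones and 5 Moderate libraries above all High ones. The means were 593 ± 81.2 and 717 ± 94.2 (SD, n = 15 each), a log2 fold change of -0.28 (SE 0.07, adjusted p = 0.0260 in limma). At a median of 5764 reads per library, it was the most deeply counted of the 6.

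miR-381 ran from 111 through a median of 174 to 259 under High and from 153 through 237 to 336 under Moderate. Of the High libraries, 13 of 15 were under the median of the Moderate ones, while 1 Moderate library lay above all High ones. The means were 178 ± 43.8 and 230 ± 42.3, with a log2 fold change of -0.38 (SE 0.11, adjusted p = 0.0409 in limma).

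miR-487b was at 26.6, 35.7 and 45.9 in the lowest, median and highest High library and at 34.5, 41.6 and 52.2 in the Moderate ones. It is the next gene after miR-381 in the cluster, and 7 High libraries were below every Moderate one. Its log2 fold change of -0.27 (SE 0.07) had an adjusted p of 0.0409 in limma. Its close relative miR-487a stood at -0.28, with a wider interval of -0.62 to 0.06, and did not pass.

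miR-376d, a member of the miR-376 family whose relatives are known targets of RNA editing in brain, was at 2.65, 3.28 and 5.22 under High and 3.81, 4.68 and 6.93 under Moderate. The 10 lowest High libraries lay below all Moderate ones, and 4 Moderate libraries above all High ones. Its log2 fold change was -0.39 (SE 0.10, adjusted p = 0.0260 in limma), from a median of 39 reads per library.

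miR-3956, a miRNA with a median of 47 reads per library, had the largest fall, from 6.66 ± 3.14 to 4.35 ± 0.916. High libraries lay between 2.96 and 6.17 with a median of 4.28, and Moderate ones between 4.77 and 17.6 with a median of 5.89. The value of 17.6 was that of Moderate replicate 5. The log2 fold change was -0.51 (SE 0.13, adjusted p = 0.0260 in limma), and -0.41 without that library (adjusted p = 0.00645), where the 10 lowest High libraries still lay below the other Moderate ones.

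miR-411c-3p, the minor arm of its hairpin, was at 2.40, 3.11 and 4.59 under High and at 2.82, 4.23 and 7.13 under Moderate, the last again in Moderate replicate 5. The log2 fold change was -0.35 (SE 0.10, adjusted p = 0.0445 in limma) and in 14 of 15 High libraries it was under the median of the Moderate ones.

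**Figure D2:**
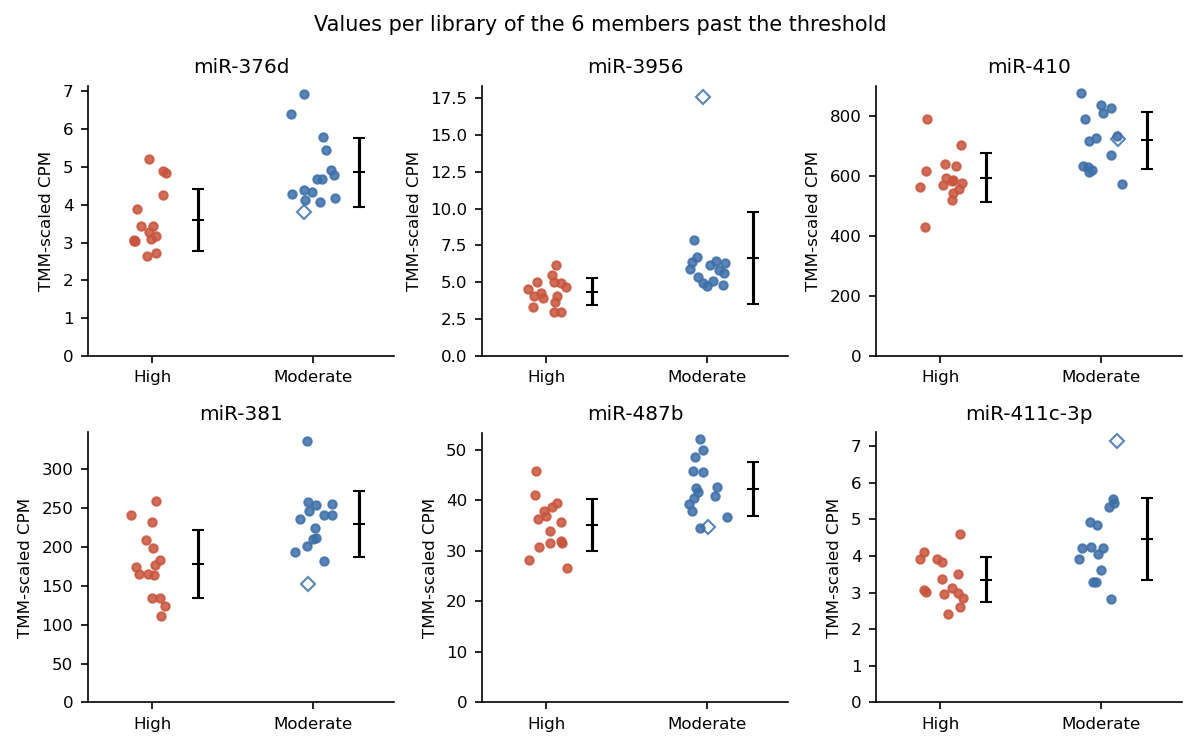
Values per library, in TMM-scaled CPM, of the 6 members that passed the test, with the mean and SD of each diet (bars, n = 15) beside the points and Moderate replicate 5 as an open diamond. The diets overlap for each of the 6, with the High libraries shifted down.

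The calls rested on adjusted p-values close to the threshold, between 0.0260 and 0.0445, and moved with the scaling and with single libraries. With library totals alone in place of TMM factors none of the 6 passed (adjusted p of 0.226 to 0.827 in limma). Their log2 fold changes were then -0.06 for miR-410 and miR-487b, -0.17 for miR-381 and miR-411c-3p, -0.22 for miR-376d and -0.32 for miR-3956. Without High replicate 5, limma called 0 of the 38 (0% of all 385 tested), although the lowest adjusted p of a member was 0.0520 and 19 members were lower and 0 higher at an unadjusted p under 0.05 (9.09% and 10.4% of all tested). Without Moderate replicate 5 it called 17 lower (6.75% of all 385 tested), the 6 among them, and 0 higher (4.94%). Over the 30 fits that each lacked 1 library, the calls of miR-376d, miR-410 and miR-3956 held in 29, that of miR-487b in 15, that of miR-381 in 12 and that of miR-411c-3p in 10.

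The members below the threshold mostly lay on the same side. Of the 38, 35 had a log2 fold change below 0, against 43.7% of all tested miRNAs. With library totals alone in place of TMM factors 24 of 38 did, against 14.7%. When Moderate replicate 5 was also left out, 34 of 38 did. The share of all 389 tested miRNAs below 0 was not counted there, but 35 of the 38 lay below their median of 0.07. The median over the members was -0.24 and that over all 387 was 0.03. Library totals alone moved the median of all tested miRNAs to 0.22 and that of the members to -0.06. The members' median was thus 0.28 below that of all tested miRNAs, against 0.27 below it with TMM. Without Moderate replicate 5, library totals alone gave 0.07 for all tested miRNAs and -0.19 for the members, a gap of 0.26. Under either scaling of the 30 libraries, 36 of the 38 lay below the median of all tested miRNAs. The members share their libraries and their transcription unit, so these counts are not 38 separate observations.

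**Figure D3:**
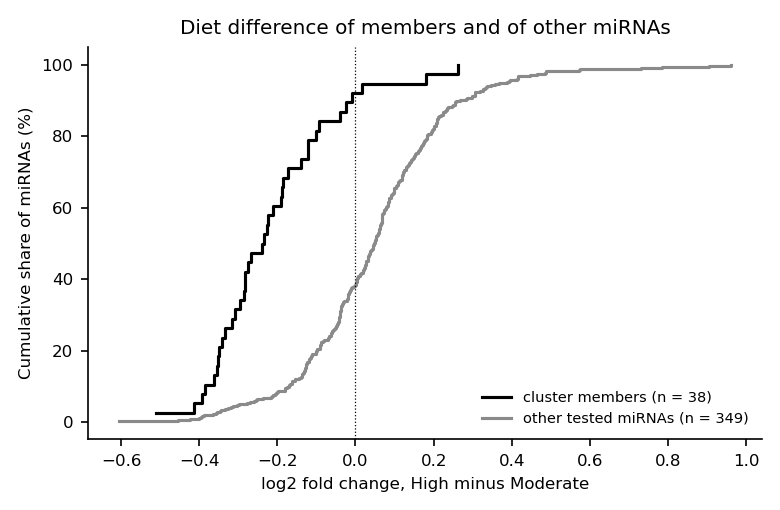
Cumulative share (%) of the 38 tested members and of the other tested miRNAs by log2 fold change, High minus Moderate, in the scaling as deposited. The curve of the members lies to the left, with a median of -0.24 against 0.05, and 23 members and 30 of the others lie below -0.2. With library totals alone the medians of members and of all tested miRNAs were -0.06 and 0.22, and without Moderate replicate 5 they were -0.19 and 0.07.

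Of the abundant members, miR-410 and miR-381 passed and the others did not. miR-411a had means of 9411 ± 1268 under High and 10809 ± 1747 under Moderate, a log2 fold change of -0.19 (95% confidence interval -0.36 to -0.02, adjusted p = 0.164 in limma). Its value of 6251 in Moderate replicate 5 was the lowest of all libraries, and without that library it passed, at -0.25 (adjusted p = 0.0123). With library totals alone its log2 fold change in the 30 libraries was 0.02. miR-380-3p stood at -0.12 (-0.33 to 0.09) and miR-154c at -0.09 (-0.27 to 0.09). With library totals alone both were above 0 in the 30 libraries, at 0.09 and 0.12. Without Moderate replicate 5, they and miR-411a were below 0 in that scaling.

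In miR-379, miR-494 and miR-495 each of the 15 High libraries lay under the median of the Moderate ones, a pattern shared by 2.33% of all tested miRNAs. These 3 were singled out after their values were seen. Counted the other way, 13, 13 and 12 of the 15 Moderate libraries lay above the High median in these 3. In miR-376d and miR-3956 that count was 15. miR-379, the first gene of the cluster and in mouse liver a regulator of lipid export, was at 80.4 to 120 under High (median 107) and 89.7 to 367 under Moderate (median 127.3). miR-495 was at 14.01 to 23.7 under High (median 20.8) and 13.3 to 39.5 under Moderate (median 26.9). miR-494 was at 4.53 to 8.79 (median 7.17) against 1.43 to 12.2 (median 9.37). Moderate replicate 5 held the highest value of miR-379 and the lowest values of miR-495 and miR-494, that of miR-494 being only 3 reads. None of the 3 passed in limma in the 30 libraries (adjusted p of 0.0820, 0.449 and 0.0619 for miR-379, miR-494 and miR-495), and all passed without that library (0.0248, 0.00645 and 0.00645). Counting at least 13 of the 15 High libraries below the Moderate median, 24 of the 38 members had this pattern, against 14.5% of all tested miRNAs. No member had diet ranges that did not overlap, nor did any of the 387 (0%) with High below Moderate.

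The 3 members with a log2 fold change above 0 were among the low ones. miR-1197 was at 2.43, 5.21 and 7.95 in the lowest, median and highest High library and at 1.96, 3.72 and 6.29 in the Moderate ones, a log2 fold change of 0.26 (-0.06 to 0.58, adjusted p = 0.353 in limma). miR-496 stood at 0.18 (-0.10 to 0.46) and miR-541 at 0.02 (-0.21 to 0.24), and neither passed. Of the members that did not pass, miR-655 had the lowest log2 fold change and stood at -0.41 (SE 0.14, adjusted p = 0.0820 in limma). It was at 5.93, 8.17 and 11.7 under High and at 7.49, 9.89 and 25.2 under Moderate, the highest again in Moderate replicate 5.

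Some members share a number, as related hairpins or as both arms of 1 hairpin. How alike their sequences are was not checked. The 5 tested miR-376 members, which lie near one another, had log2 fold changes from -0.39 to -0.10 at mean levels of 1.49 to 9.90, and 1 of the 5, miR-376d, passed. In Moderate replicate 5 miR-376b was at 1.43, only 3 reads, against at least 4.28 in each High library. miR-376a, miR-376c and miR-376e also had their lowest value there, at 2, 1 and 11 reads. The 3 tested miR-411 members, miR-411a and both arms of miR-411c, stood at -0.35 to -0.17. With library totals alone miR-411a, miR-411c-5p and miR-376b were above 0 in the 30 libraries, at 0.02, 0.03 and 0.05. All were below 0 in that scaling without Moderate replicate 5. Reads of related hairpins with the same arm can be assigned to one another where their sequences are alike, so their separate values are uncertain. This does not apply between the arms of miR-411c.

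The balance of the arms was compared in the 2 hairpins with both arms tested, miR-369 and miR-411c, as log2 of the 5p over the 3p value within each library, with 0.5 added to both, which draws in the ratio of a low arm. miR-369-3p, known to raise translation of an AU-rich target in resting cells, exceeded its 5p partner in every library. The log2 ratio of miR-369 ran from -2.52 through a median of -2.29 to -1.95 under High and from -2.71 through -2.33 to -0.51 under Moderate. Its mean differed by -0.02 between the diets (SE 0.14, permutation p = 0.933, two-sided, n = 15 each, 0.933 adjusted over the 2 hairpins). In miR-411c the 5p arm dominated, with ratios of 3.45, 3.79 and 4.23 under High and 1.58, 3.82 and 4.25 under Moderate. Its mean differed by 0.18 (SE 0.18, permutation p = 0.387, 0.774 adjusted), and by 0.09 with 2 and 0.21 with 0.1 added in place of 0.5. In the 12 libraries whose labels are alike this difference was 0.58 (SE 0.40) and in the 18 others -0.09 (SE 0.11), neither called. The extreme ratios, -0.51 and 1.58, were both those of Moderate replicate 5, which is among those 12 libraries. Without it the differences were 0.10 (SE 0.07, permutation p = 0.172, 0.343 adjusted) and 0.03 (SE 0.10, permutation p = 0.773, 0.773 adjusted). No difference in arm use by diet was detected in either hairpin, with or without that library.

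Both arms of miR-369 had like log2 fold changes, -0.21 for 5p (-0.37 to -0.06, adjusted p = 0.0820 in limma) and -0.19 for 3p (-0.46 to 0.09, adjusted p = 0.443). The 3p arm was at 47.6 in Moderate replicate 5 and at 120 or more in the other Moderate libraries, and it passed without that library (-0.31, adjusted p = 0.0112). The major arm miR-411c-5p likewise stood at -0.17 (adjusted p = 0.415) and at -0.27 without that library (adjusted p = 0.0112).

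Along the cluster, where the calls lay depended on the libraries used, the tool and the scaling. Taken in gene order in 3 blocks of like size, 0 of 13 tested members passed from miR-379 to miR-376c, 5 of 13 from miR-376d to miR-382, and 1 of 12 from miR-134 to miR-323b-3p. Without Moderate replicate 5 the blocks held 6, 7 and 4 calls. In the 30 libraries DESeq2 made 7, 8 and 6, and limma with upper-quartile scaling 2, 5 and 4 (5.17% of all tested were called lower in that scaling). The median log2 fold changes of the blocks were -0.19, -0.28 and -0.23, with ranges that overlapped (-0.36 to 0.26, -0.51 to -0.10 and -0.35 to 0.18). Whether the blocks differ was not tested, and members of a block are not replicates. Over the 38 members, Spearman's rho of the log2 fold change was -0.15 with gene order and -0.02 with mean level, given as a description. By level, the medians were -0.19, -0.27 and -0.23 for the 7 members at 100 or more, the 9 at 10 to 100 and the 22 at 1 to 10.

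**Figure D4:**
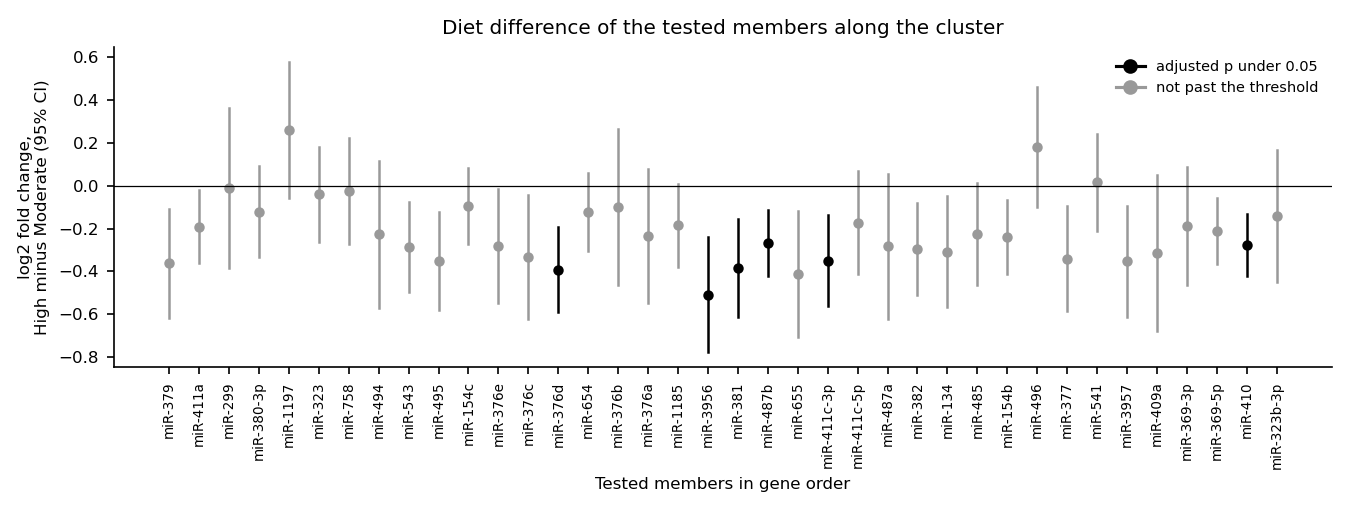
Log2 fold change, High minus Moderate, with its 95% confidence interval for the 38 tested members in gene order, in the scaling as deposited, with black for an adjusted p under 0.05 in limma. Points lie between -0.51 and 0.26, with the 6 calls between miR-376d and miR-410. Of the 38, 35 are below 0, against 43.7% of all tested miRNAs. With library totals alone 24 are below 0, against 14.7%. When Moderate replicate 5 is also left out 34 are, where the median of all tested miRNAs is 0.07.

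Calves differed in the level of the whole cluster, and members tended to move together from calf to calf. The 52 members took 1.05% to 1.66% of the signal summed over all listed miRNAs under High (median 1.17%). Under Moderate they took 0.192% to 1.73% (median 1.39%), and 14 of 15 High libraries were below that median. The 0.192% was that of Moderate replicate 5, and the other 14 began at 1.08%. With the reads of miR-10b left out of the total, the shares were 1.68% to 2.68% (median 2.03%) and 1.27% to 2.86% (median 2.42%). The signal without miR-411a summed to 1389 to 2190 under High and 1791 to 2492 under Moderate, with 13 of 15 High libraries below the Moderate median.

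For each library, the deviation of the 38 tested members from their medians over all 30 libraries was summarised by its median. It ran from -0.29 to 0.22 on the log2 scale under High, with 12 of 15 calves below 0, and from -0.32 to 0.39 under Moderate, with 4 of 15 below 0. High replicate 10 had 37 of the 38 members below their medians and High replicate 8 had 36, while Moderate replicate 8 had 2. The exceptions were High replicates 3, 6 and 9, in which 13, 6 and 8 members were below their medians. The diets therefore overlapped at the level of the calf, and the choice of members and earlier results of these data leave no independent test of this summary.

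**Figure D5:**
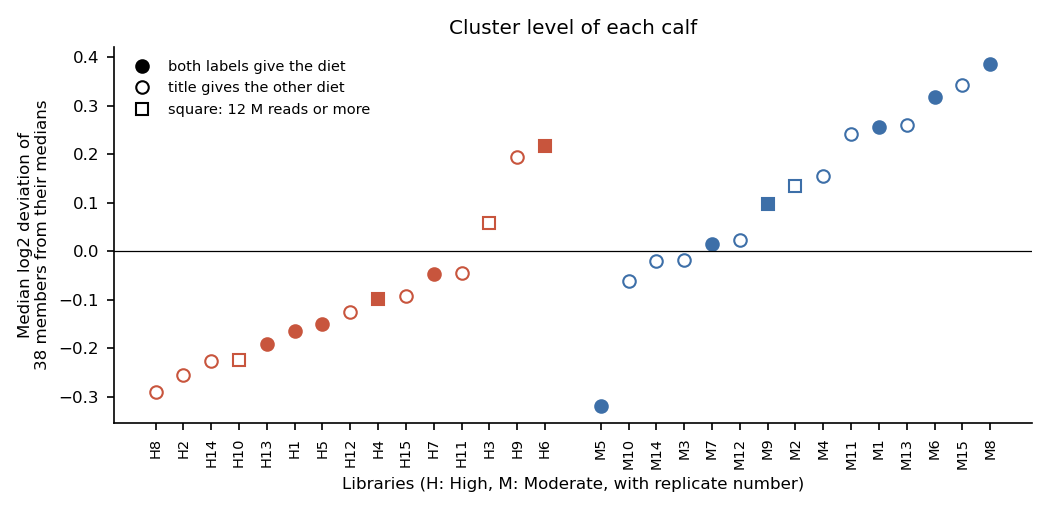
Median log2 deviation of the 38 tested members from their own medians over all libraries, 1 point per calf, sorted within each diet, as deposited. Open symbols are calves whose title gives the other diet and squares are libraries of at least 12 M reads. Of the High calves 12 lie below 0, and of the Moderate calves 4, Moderate replicate 5 being the lowest at -0.32.

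With the mean of each diet removed, Pearson's r between pairs of members over the 29 libraries without Moderate replicate 5 had a median of 0.32, and 90.04% of the 703 pairs were above 0. For pairs of tested miRNAs outside the cluster the median was 0.003, and 50.5% of those pairs were above 0. For a member with a miRNA outside the cluster the median was -0.02. With all 30 libraries, the medians for pairs of members and for pairs of the others were 0.26 and 0.04. Of these pairs, 79.1% and 54.6% were above 0. The closest pairs were miR-154c with miR-410 (0.80), miR-154c with miR-380-3p (0.80) and miR-380-3p with miR-410 (0.79), followed by miR-376a with miR-376d (0.79). miR-380-3p had the highest median r with the other members (0.53) and miR-409a the lowest (0.05). All 38 had a positive r with miR-127, which is made from the proximal end of the domain, in the 29 libraries (0.02 to 0.79, median 0.47), and 28 did in the 30 (-0.31 to 0.81, median 0.29). These correlations are descriptive: libraries share a scaling, and low members carry more counting noise.

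The rest of the domain was described by a list chosen with earlier results known. Of 13 tested miRNAs of the proximal DLK1-DIO3 part and its flanks, 2 were called lower and 0 higher in limma, with a median of -0.22. miR-127 fell from 18348 ± 3215 to 14367 ± 2034 (log2 fold change -0.35, adjusted p = 0.0260 in limma) and miR-432 from 104 ± 35.5 to 76.9 ± 10.1 (-0.39, adjusted p = 0.0409), and both lay above the threshold without High replicate 5 (0.0520 and 0.0695). Of 5 tested miRNAs from other imprinted loci, miR-483, from the IGF2 locus, fell (-0.45, adjusted p = 0.0462 in limma, 0.0642 without High replicate 5), and the median was -0.06.

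Split by depth, the median of the members was further below 0 in the shallower libraries. In the 24 libraries under 12 M reads the median over the members was -0.28, 36 of the 38 were below 0, and miR-376d passed (0.519% of all tested were called lower and 0.26% higher, and 44.2% were below 0), while 19 were lower and 0 higher at an unadjusted p under 0.05 (8.83% and 9.35% of all tested). In the 6 deeper libraries, 4 High and 2 Moderate, the median was -0.15, 30 were below 0 and 0 passed in limma (0% of all tested were called lower and 0.504% higher, and 47.6% were below 0). At an unadjusted p under 0.05, 2 members were lower and 1 higher there (4.79% and 6.05% of all tested). The higher one was miR-299, singled out here for this value, at 1.15 (adjusted p = 0.0649 in limma). It was at 16.5 to 23.5 in the 4 deep High libraries and at 9.44 and 7.43 in the 2 deep Moderate ones, but at -0.23 in the shallower libraries and -0.01 in all 30. The 6 calls all had log2 fold changes below 0 in both depth ranges, from -0.58 to -0.31 in the shallower and from -0.26 to -0.09 in the deeper libraries, and the difference between the ranges was not tested.

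The conflict of labels bears on every diet difference. With the diet of the titles, 0 of 38 members passed in limma (0% of all tested in either direction), 2 were higher and 0 lower at an unadjusted p under 0.05 (2.58% and 0.258%), and the median over the members was 0.04. In the 12 libraries whose title and characteristic give the same diet, 6 of each, 0 of 39 tested members passed (0%), 12 were lower and 2 higher at an unadjusted p under 0.05 (5.88% and 5.12%), and the median was -0.18. In the 18 others, grouped by the characteristic, 0 of 38 passed (0%), 15 were lower and 0 higher at an unadjusted p under 0.05 (8.07% and 7.03%), and the median was -0.23. The 6 calls were below 0 in both parts, miR-410 at -0.24 in the 12 and -0.30 in the 18, but these parts make up the full comparison and are no separate evidence. miR-655 stood at -0.80 in the 12 and -0.16 in the 18, and miR-1197 at 0.67 and -0.01. Moderate replicate 5, which had the highest miR-655 value (25.2), is among the 12, and its part in these differences was not tested.

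Of the marker lists of other cell types, that of germ cells held calls in limma in the 30 libraries. Which stages of germ cells were present was not tested. Of its 6 miRNAs 3 were tested and 2 rose, miR-34b (log2 fold change 0.73, adjusted p = 0.0313) and miR-34c (0.96, adjusted p = 0.0260), both at an adjusted p of 0.0520 without High replicate 5. The other tested one, miR-449a, stood at 0.02 (adjusted p = 0.949 in limma), with means of 11.7 ± 3.30 under High and 11.9 ± 4.94 under Moderate. miR-449d was at 0 in all libraries. Outside the list, miR-34a was also called higher (log2 fold change 0.49, adjusted p = 0.0260 in limma). Without High replicate 5, 0% of all 385 tested miRNAs were called higher. The summed level of the list was 90.5 to 265 under High and 22.8 to 185 under Moderate, the lowest in Moderate replicate 5. The part of these miRNAs in the fall of the cluster members was not tested. None of the 2 gonadal somatic, 2 smooth muscle, 2 endothelial, 4 epithelial, 3 red blood cell, 7 leukocyte, 3 striated muscle or 6 neural miRNAs tested passed in limma in the 30 libraries. Without Moderate replicate 5, miR-499 of the striated muscle list (log2 fold change 0.57 in the 30 libraries) had an adjusted p of 0.0127 and miR-146b of the leukocyte list (0.91) one of 0.0358, and their part in the results on the cluster was not tested. Their median log2 fold changes were 0.04, -0.13, 0.05, -0.27, 0.25, -0.02, 0.16 and 0.04. miR-1 and miR-206 of the striated muscle list were at 0 throughout. In the same list miR-133a (median 10.3 under High and 9.02 under Moderate) and miR-499 (6.68 and 4.56) were above 0 in all 30 libraries. Whether striated muscle was present was not tested. The neural list, of interest because the cluster is abundant in brain, holds miR-129 and miR-124 under 2 names each with identical values, and summed to 35.95 to 69.3 under High and 30.7 to 84.1 under Moderate.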

How the data were processed

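Small RNA of 30 testes was measured, 1 library per calf. Per the labels' protocols, libraries were TruSeq small RNA, from RNA of an RNeasy column kit. The submitters' processing notes list edgeR 3.5, R 3.4, cutadapt 2.6 and FastQC 0.11.8. Not given in the sources used here: aligner, miRNA reference and build. The deposited values, although named counts, are a normalized signal: TMM-scaled CPM, as worked out from the values. Of 18379 nonzero values, 95.3% were whole multiples of 1 read's value (tolerance 0.02 read), and fractions occurred in 1 member, miR-544b. At 0 reads, the limit of 3 reads equals 0.138 to 1.43 units by library, for counting error only, since there are no molecular identifiers.

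Diet, the only term, was tested by limma 3.58.1 (trend option) on log2(value + 0.5) where 15 or more libraries reached a value of 1 (0.5 of the libraries, rounded up, in subsets), with Benjamini-Hochberg adjustment over all tested and a threshold of 0.05. The log2 scale with a pseudocount understates changes of low miRNAs. The plan put edgeR in place of limma only if the values were counts, which they are not. Recovered reads, rounded, went to edgeR 4.0.16 (quasi-likelihood) and DESeq2 1.42.0 for the same 387 miRNAs. Arm ratios used 100000 permutations. The code of the fits was run on simulated data in which miRNAs varied independently with a common spread. Members tended to vary together in the real data, so that run is no evidence on the calls. Analyses ran in R 4.3.3.

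The members, lists and tests were chosen with earlier results of these data known. Named are members past the threshold, the 5 most abundant, the 3 highest and 3 lowest log2 fold changes, pairs of arms, and the 3 members nearest the filter on each side. Others are said to be singled out. Other settings were pseudocount, filter, scaling, tool, depth, labels and each library left out. No mature miRNA sequences were used here, and gene order alone was taken from RefSeq. No coordinates are printed, as the authors' build is not named.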

Additional observations from a re-analysis of the deposited data

How the results depend on the processing

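The number of members lower under High, 6 of 38 in limma, was 6 with a pseudocount of 2 or 0.1, without the mean-variance trend, with log10 depth as a covariate and with median-of-ratios scaling (5 of the 6 shared there). It was 0 of 50 with no filter (0% of all 838 tested were called lower, with 19 members lower and 0 higher at an unadjusted p under 0.05), 3 of 16 with a filter at 10 (2.99% of all 234 tested), 0 with library totals alone (0% of all tested, with 1 member lower and 1 higher at an unadjusted p under 0.05), 11 with upper-quartile scaling (5.17%), 8 in edgeR, 21 in DESeq2, 1 in the libraries under 12 M reads, 0 in those of 12 M reads or more, 0 with the diet of the titles, 0 of 39 in the 12 libraries with both labels alike and 0 in the 18 others. Leaving out each library in turn gave 0 (without High replicate 5) to 17 (without Moderate replicate 5). Library totals alone without Moderate replicate 5, chosen after seeing the data, gave 5 (2.06% of all 389 tested), of which 3 were among the 6. The smaller numbers of libraries and of tested miRNAs come with the settings that use them. Beyond that, the cause was not tested. No setting listed here called a member higher or an arm ratio different.

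Of the 38 members, the sign of the log2 fold change turned in 25 with the diet of the titles, 11 with library totals alone (1 without Moderate replicate 5), 4 in the 12 libraries with labels alike, 3 in the 18 others, 5 in the libraries of 12 M reads or more, and 1 each in those under 12 M reads, with upper-quartile scaling and with log10 depth. Values follow for the members chosen by the naming rule. With the diet of the titles it was 0.0167 for miR-376d, 0.0165 for miR-3956, 0.0809 for miR-410, 0.0923 for miR-411a, 0.16 for miR-411c-5p, 0.13 for miR-369-3p, 0.071 for miR-369-5p, 0.0443 for miR-376c, 0.0219 for miR-377, 0.17 for miR-380-3p, 0.23 for miR-154c, 0.145 for miR-323 and -0.0113 for miR-541. With library totals alone it was 0.12 for miR-154c, 0.11 for miR-323, 0.0208 for miR-369-3p, 0.0903 for miR-380-3p, 0.0213 for miR-411a and 0.0321 for miR-411c-5p. In the 12 libraries it was 0.17 for miR-154c, 0.13 for miR-323 and 0.0664 for miR-380-3p, and in the 18 it was -0.009 for miR-1197 and -0.0817 for miR-496. It was 0.0191 for miR-376c in the libraries of 12 M reads or more. miR-541 stood at -0.0186 with upper-quartile scaling, -0.0696 in the libraries under 12 M reads and -0.0214 to 0.058 with each library left out. The cause was not tested. Low members were limited by depth: miR-376c had as few as 1 read in a library, with a median of 15.

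No paired analysis was possible because no label numbers the replicates across diets, and numbers given here only name calves.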

Other observations

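The gene table places 2 further miRNA genes between MIR379 and MIR656 whose numbers are outside the set of members. miR-668-3p was above 0 in all 30 libraries, at 0.526 to 1.66 under High (median 0.873) and 0.476 to 1.81 under Moderate (median 1.14), and was not tested because of its low level. miR-3578, whose gene overlaps that of miR-382 in the table, was listed at 0 in all 30 libraries.

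Of the members below the filter, miR-1193, miR-329b and miR-544b were at 0 in 26, 28 and 27 of the 30 libraries.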
